A study of Mus musculus with 3 samples.

Results

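The genes described here are 44 cytosolic and mitochondrial chaperones and co-chaperones of the mouse: the HSP70 family with Hspa8, the HSP110 and HSP90 families, small heat shock proteins, mitochondrial chaperones, J-domain proteins, co-chaperones, heat shock factors and subunits of the chaperonin CCT. They were chosen by name, and their probes were found by matching the RefSeq accession on the array to a gene symbol. Of the 44 genes, 42 had a matched probe, out of 20659 genes named in this way, and together they had 59 of the 27235 probes matched to a gene. Hspa1b and Dnajb5 had no matched probe. Of the 59 probes, 57 were well above background on all 3 arrays by the scanner software's call, none was saturated and none carried an outlier mark.

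Total RNA came from NIH3T3 cells, a mouse fibroblast line, grown to confluency and collected 24 h after treatment, and was hybridized to one-colour Agilent arrays. In the None condition the cells were untreated, in the AR7 condition they received 20 μM AR7, and in the BMS614 condition 20 μM BMS614. AR7 was developed as an activator of chaperone-mediated autophagy (CMA) that binds the retinoic acid receptor RARα, and BMS614 is a selective RARα antagonist. Both compounds were dissolved in DMSO. The paper describes the None cells as cultured without additions, and whether they received DMSO alone is not stated in the sources used here. Each condition had 1 array, all 3 on 1 slide, so no test between conditions could be made and no difference below has a replicate check. In an RNA extract of a whole culture, fewer cells with a transcript and less of it per cell cannot be told apart. All 8 fibroblast markers looked up, among them Col1a1, Vim and Thy1, were well above background on all 3 arrays. Of 9 markers of other cell types with a probe, 4 (Epcam, Gfap, Tubb3 and Alb) were well above background on none and 3 (Cdh1, Pecam1 and Myh6) on all 3.

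Chaperones of the HSP70 family bind short hydrophobic stretches of unfolded proteins in cycles driven by ATP, J-domain proteins start those cycles, and nucleotide exchange factors such as the HSP110 and BAG proteins end them. HSP90 takes over many clients from HSP70 with the help of linking co-chaperones, and CCT and the mitochondrial HSP60 enclose their clients in a chamber. Under heat or proteotoxic stress, heat shock factor 1 (HSF1) binds repeats of nGAAn in promoters and raises many of these genes together. In CMA, Hspa8 (HSC70) picks out cytosolic proteins with a KFERQ-like motif and brings them to the lysosomal receptor LAMP2A. The comparison sets the transcripts of these genes in untreated cells beside those in cells given a CMA activator or an RARα antagonist.

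Values are log2 signals after background correction and normalization across the 3 arrays (RMA), and a difference is the log2 signal on one array minus that on another for the same probe. A gene stands for its probe with the highest mean signal. Members are counted past 1.2-fold, a log2 difference of 0.26. The technical error is the SD of log2 differences between repeated spots, taken from 266 probes that are printed 10 times on each array. For AR7 against None this spot SD ran from 0.393 at the lowest signals to 0.049 at the highest, and it holds no variation between cultures.

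Few chaperones were past 1.2-fold in any of the 3 comparisons. With AR7, 1 of 41 members with a value was past 1.2-fold against None, Hspa1a, which was lower, beside 15.1% of 14678 named genes. With BMS614, 2 of 41 were past it, Dnajc7 higher and Hspa1a lower, beside 17.1% of named genes. Between AR7 and BMS614, 3 of 42 were past it, Hspb1 higher by its bound with AR7 and Dnajc7 and Hsf2 lower, beside 17.2%. No member reached 2-fold in any of the 3 comparisons, beside 1.04%, 1.06% and 1.01% of named genes.

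Most members were bright, and bright probes differ less, so these shares of all named genes are no measure of the members alone. The counts were also set beside named genes above a minimum signal, which were still dimmer than the members: 15 of 40 members reached a mean log2 signal of 14, against 1240 of 10069 named genes. Among the 40 members whose mean log2 signal was 8 or more, 0 were past 1.2-fold with AR7, beside 3.22% of 10069 named genes at that signal. With BMS614, 1 of 40 was past it, beside 5.11%. Between the compounds 2 of 40 were past it, beside 4.37%, so that the members' shares lay near the background or below it, and how much of that goes with their brightness was not tested. The median absolute difference of all 41 members was 0.048 with AR7 and 0.062 with BMS614, beside 0.064 and 0.075 for named genes at that signal. The median signed difference of the members was -0.02 with AR7 and -0.04 with BMS614. Under other ways of processing the arrays it ran from -0.02 to -0.07 with AR7 and from -0.03 to -0.07 with BMS614. Of the 41 members, 26 and 25 lay below 0 (63.4% and 61.0%), beside 49.6% and 48.7% of named genes. Against the spot SD, 23 of the 41 members differed from None by no more than 1 SD with AR7 (56.1%) and 19 with BMS614 (46.3%), near the 52.9% and 44.7% of named genes. Past 2 SD there were 6 members with AR7, 14.6%, beside 18.2% of named genes, and 11 with BMS614, 26.8%, beside 25.4%. At a mean log2 signal of 8 or more, 12.5% of the 40 members were past 2 SD with AR7, beside 20.3% of named genes. With BMS614 it was 25%, beside 28.7%. Within 1 SD there were 57.5% with AR7 and 47.5% with BMS614, beside 50.4% and 41.8%. The plot of all members by array comparison shows the spread around 0 and the members that stand outside it.

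**Figure D1:**
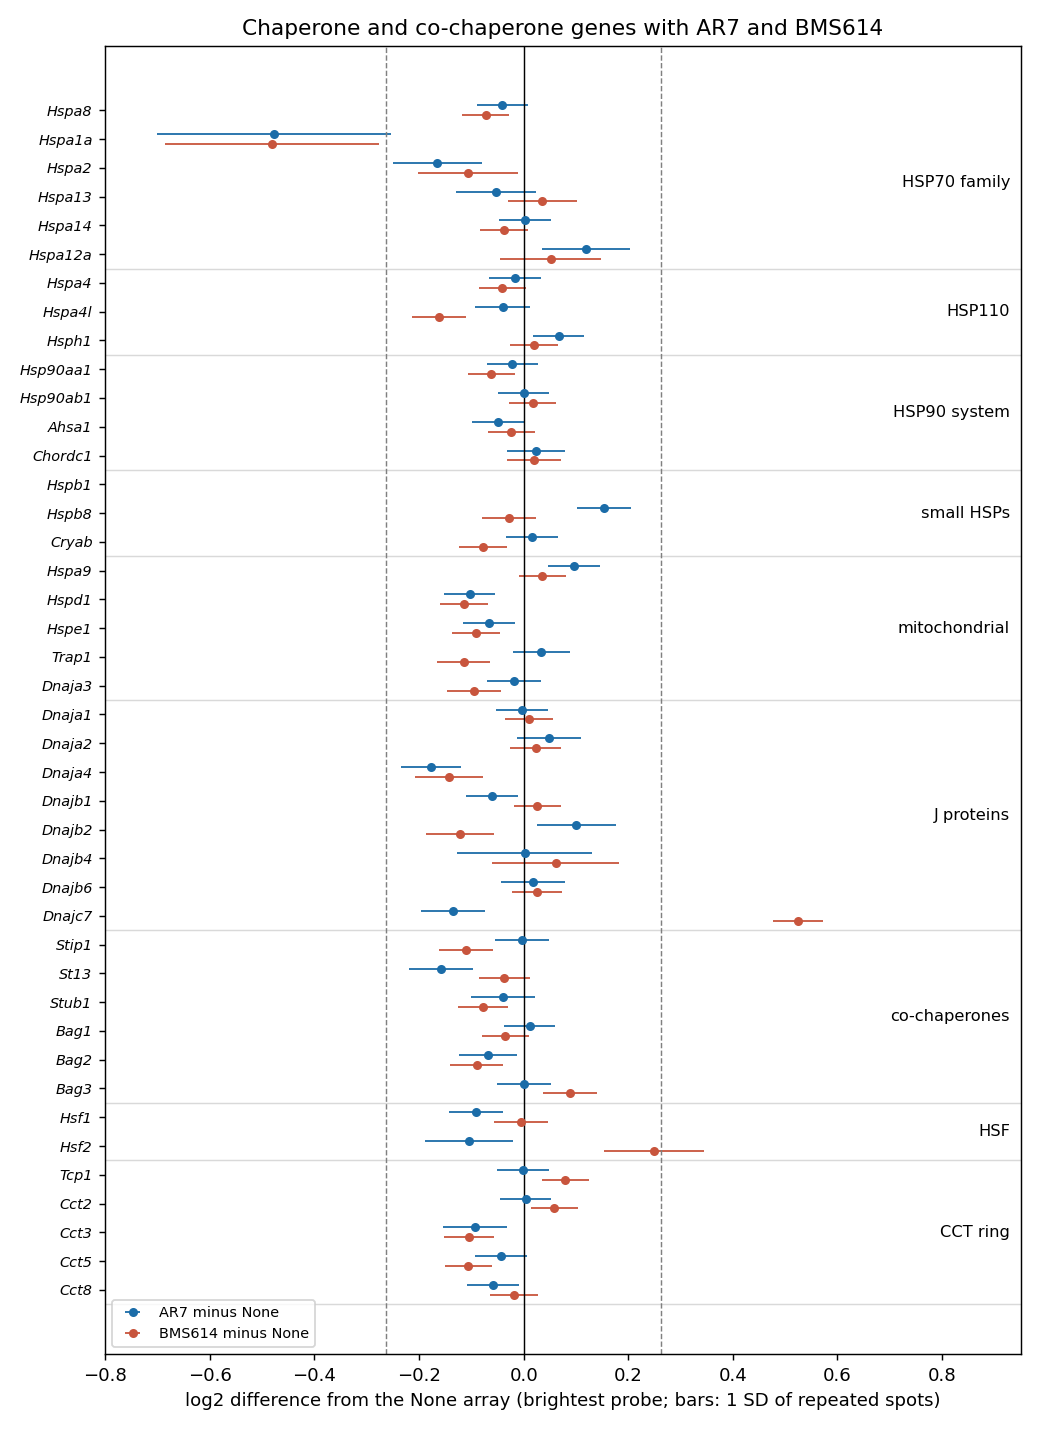
Log2 difference from None with AR7 and with BMS614 for each chaperone member with a value, by functional group, from 1 array per condition. Error bars are 1 spot SD at the member's signal, the dashed lines mark 1.2-fold, and Hspb1 has no value against None. Hspa1a lies at -0.48 with both compounds and Dnajc7 at 0.52 with BMS614, while the other members stay inside the dashed lines.

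**Figure D2:**
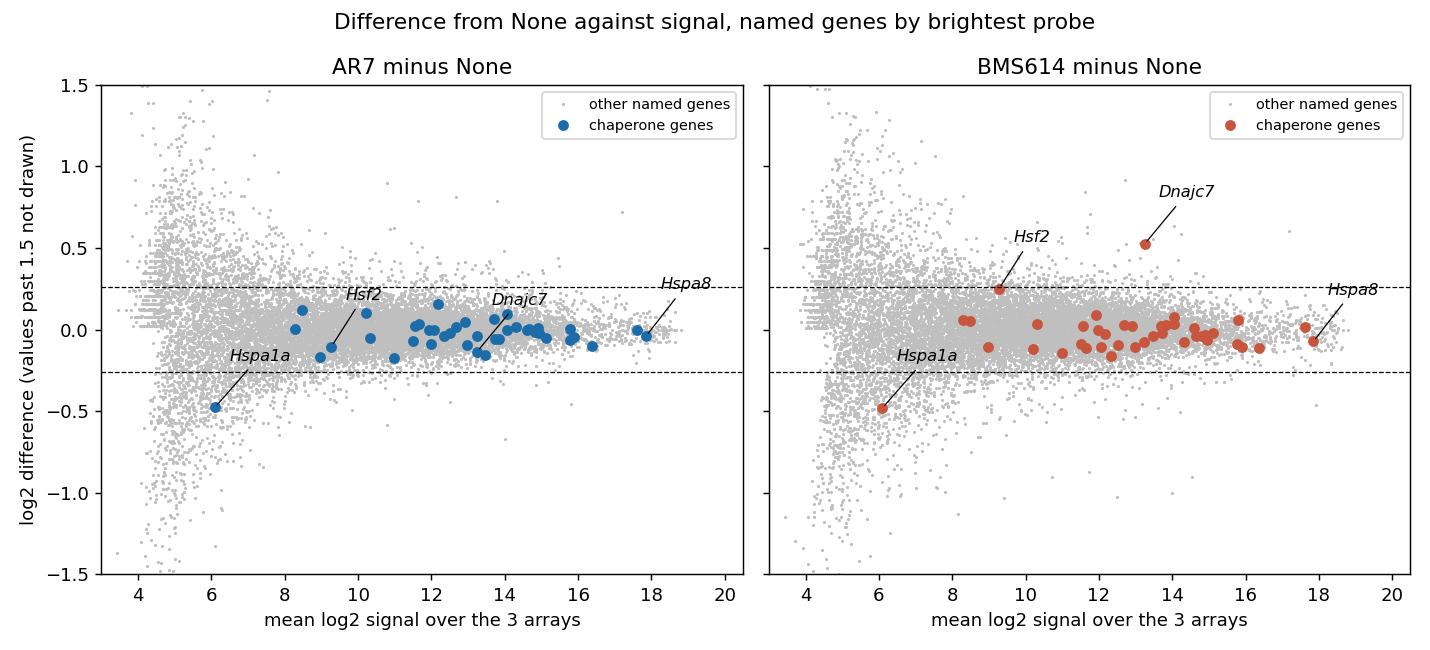
Log2 difference from None against mean log2 signal for named genes by their brightest probe (grey) and the chaperone members (coloured), with AR7 and with BMS614. Dashed lines mark 1.2-fold, and differences past 1.5 are not drawn. The members lie mostly to the right, where the grey cloud is narrow, and Hspa1a, past 1.2-fold, lies at low signal.

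Hspa8, the constitutive cytosolic HSC70, was measured by 3 probes. The brightest had log2 signals of 17.89 with None, 17.85 with AR7 and 17.82 with BMS614. Its differences from None of -0.04 and -0.07 stand beside spot SDs of 0.049 and 0.045, so that with AR7 it lay within 1 SD and with BMS614 between 1 and 2 SDs. The second probe read 16.68, 16.60 and 16.60, differences of -0.09 and -0.08. The third probe read 14.56, 14.41 and 14.25, differences of -0.16 and -0.31, the last past 1.2-fold. All 3 probes were lower than None with both compounds, and the third differed from None by more than the other probes did, by over 1 spot SD.

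The brightest Hspa8 probe had only 170 probes above it, and there the way in which arrays are brought to 1 scale sets the size of the difference. Quantile normalization gives each array the same distribution, so that the 168 named genes whose mean log2 signal was 17 or more had median differences of 0.00 with AR7 and with BMS614. With the same background correction and a single factor per array, taken at its 75th percentile, the same genes had medians of -0.07 and -0.16. Under that scaling the brightest Hspa8 probe lay at -0.12 with AR7 and -0.24 with BMS614, against -0.04 and -0.07 above. The third probe moved less, to -0.18 and -0.35. Hspa8 was thus lower than None in each of 9 alternative settings, and with BMS614 as with AR7 the brightest probe never reached 1.2-fold.

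**Figure D3:**
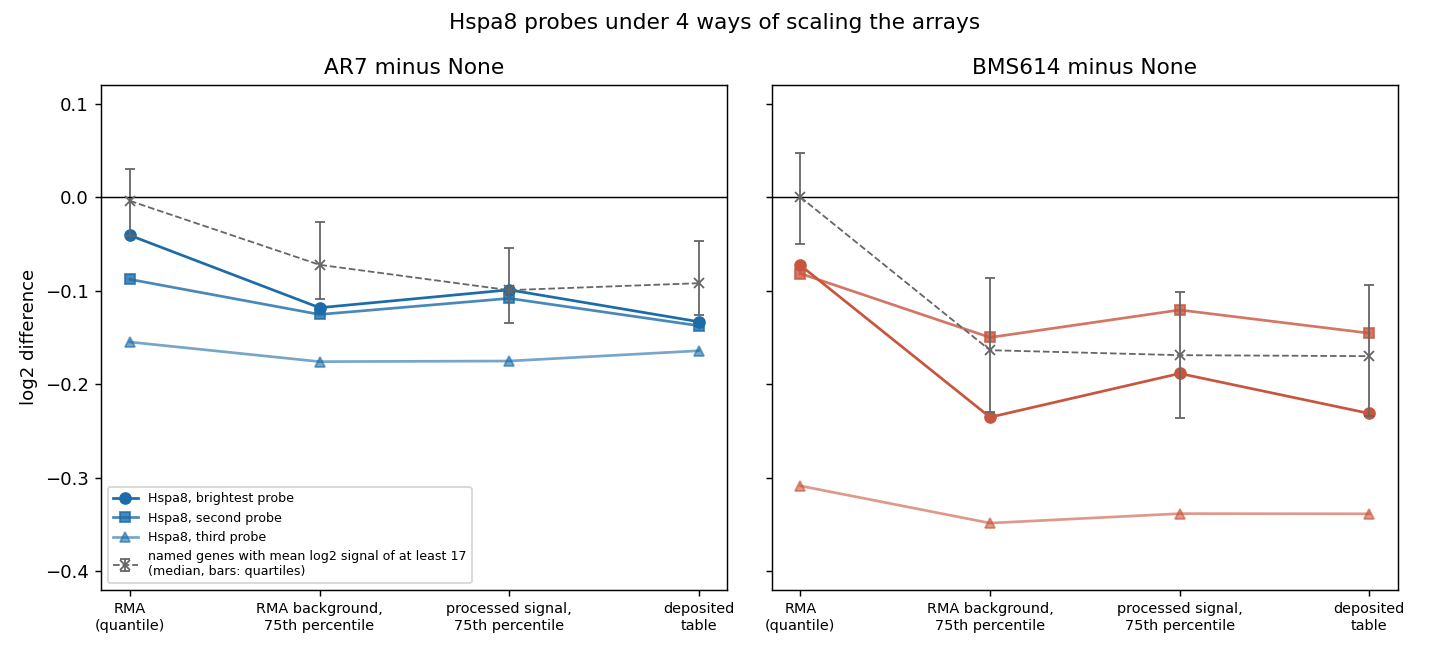
Log2 difference from None of the 3 Hspa8 probes under 4 ways of scaling the arrays, with AR7 and with BMS614, with 1 spot per probe and array. Crosses and bars are the median and quartiles of the 168 named genes at a mean log2 signal of 17 or more. The brightest probe moves from -0.04 to -0.12 with AR7 and from -0.07 to -0.24 with BMS614 when a single factor per array replaces quantile normalization.

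The remaining HSP70 proteins gave 1 difference past 1.2-fold. Hspa1a, the stress-inducible HSP70, had log2 signals of 6.41 with None, 5.93 with AR7 and 5.93 with BMS614. It was lower than None with both compounds, by -0.48 each, while the compounds differed from each other by 0.00. The None array thus stands apart from both others in this spot, and both differences share that spot. The spot SD at this signal was 0.22 and 0.21, so that the differences were just past 2 SDs. They were under 1.2-fold in 3 of the 9 alternative settings (the scanner software's processed signal, a normexp background and the deposited table). Filters on dim probes, outlier spots kept and the mean over probes could not change them, with 1 probe well above background. Hspa1b, a near-identical copy, could add to the signal of this probe. Hspa2, best known from the testis, read 9.06, 8.90 and 8.95. Hspa13, which is found with microsomes, read 10.32, 10.27 and 10.36. Hspa14, which works with the ribosome, read 14.66, 14.66 and 14.62. Hspa12a, a distant relative, read 8.42, 8.54 and 8.47. These 4 differed from None by between -0.17 and 0.12, and Hspa2 and Hspa12a differed by under 2 spot SDs.

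The letters that HSF1 binds were looked for in RefSeq promoter windows of build GRCm38.p6, from 250 bases before to 50 bases after each start. The motif searched was a pair, GAANNTTC or TTCNNGAA, each its own reverse complement, so that both strands are covered. A triple is GAANNTTCNNGAA or TTCNNGAANNTTC, which are reverse complements of each other and contain a pair. Of 36 members with a window, 16 held a pair (44.4%) and 5 a triple (13.9%), beside 16.97% and 0.662% of 27025 genes. Hspd1 and Hspe1 share 1 stretch, read on opposite strands, so its letters count for both. Hspa1a and Hspa1b have near-identical windows, and Hspa8 had no window. The sequences show 4 members, chosen because Hspa1a was the member lowest with AR7, Hspe1 held overlapping triples, Hsph1 held both motifs over its windows with a pair before the start, and Dnajc7 was the member highest with BMS614. Each is the 250 bases before the start, 5′ to 3′ on the gene's strand, with the matching letters in capitals and the rest in lower case.
Hspa1a: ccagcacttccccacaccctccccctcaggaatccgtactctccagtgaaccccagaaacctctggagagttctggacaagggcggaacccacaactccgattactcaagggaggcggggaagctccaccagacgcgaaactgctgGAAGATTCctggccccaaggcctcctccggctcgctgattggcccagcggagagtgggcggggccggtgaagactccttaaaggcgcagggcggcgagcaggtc
Hspe1: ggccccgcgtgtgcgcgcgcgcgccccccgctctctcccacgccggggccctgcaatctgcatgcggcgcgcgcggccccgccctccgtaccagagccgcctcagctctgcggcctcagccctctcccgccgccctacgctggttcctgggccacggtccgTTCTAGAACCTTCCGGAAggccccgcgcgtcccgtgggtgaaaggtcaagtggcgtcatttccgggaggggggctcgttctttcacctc
Hsph1: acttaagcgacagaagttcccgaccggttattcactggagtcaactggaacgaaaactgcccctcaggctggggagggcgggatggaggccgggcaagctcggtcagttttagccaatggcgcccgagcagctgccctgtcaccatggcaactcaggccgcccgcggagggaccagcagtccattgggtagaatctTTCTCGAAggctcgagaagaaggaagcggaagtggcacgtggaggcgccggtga
Dnajc7: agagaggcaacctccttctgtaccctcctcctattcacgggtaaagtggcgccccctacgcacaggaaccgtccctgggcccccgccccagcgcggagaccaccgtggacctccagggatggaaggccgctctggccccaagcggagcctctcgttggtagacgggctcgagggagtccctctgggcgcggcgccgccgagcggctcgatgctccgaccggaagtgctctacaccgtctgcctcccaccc
The Hspa1a stretch is chr17:34972157-34972406 on the minus strand, with its match 104 bases before the start. Hspe1 is chr1:55087898-55088147 on the plus strand, with its run 89 bases before the start, and the neighbouring Hspd1 reads away from it on the minus strand. Hsph1 is chr5:149636316-149636565 and Dnajc7 chr11:100619628-100619877, both on the minus strand, and the Dnajc7 window holds no such letters. A match is a description of these letters and not a site. The 14 members with a pair and a value had median differences of 0.00 with AR7 and -0.01 with BMS614, and the 19 without had -0.02 and -0.04.

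Genes of a list of 20 known to be raised by heat shock, several of them members, were counted too, though 18 of the 20 are members themselves. Of 18 with a value, 1 was lower past 1.2-fold with each compound, Hspa1a, which is 5.56%, beside 6.93% and 8.07% of named genes lower. None was higher, beside 8.22% and 8.99%. Of 10069 named genes whose mean log2 signal was 8 or more, 203 and 279 were higher past 1.2-fold and 121 and 236 lower. Hspa1a lay below that signal. Past 2 spot SDs there were 3 of 18 with AR7 (16.7%), beside 18.2% of named genes, and 6 with BMS614 (33.3%), beside 25.4%. Of named genes whose mean log2 signal was 8 or more, 20.3% and 28.7% were past it. Their median difference was -0.02 with AR7 and -0.04 with BMS614. Dnajb1, a J-domain protein that heat raises strongly in many cells, differed from None by -0.06 with AR7 and 0.03 with BMS614. Hsph1, which heat also raises, differed by 0.07 and 0.02. Dnajb1 and Hsph1 both stayed under 1.2-fold. With BMS614 the sign turned in 3 of 9 alternative settings for Hsph1 and in 1 for Dnajb1. The second Hsph1 probe lay at -0.06 with BMS614.

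HSP110 proteins release ADP from HSP70. None of the 3 was past 1.2-fold by its brightest probe. Hspa4l read 12.41 with None, 12.37 with AR7 and 12.25 with BMS614, a difference of -0.16 with BMS614 beside a spot SD of 0.052, the largest of the group from None. Hsph1 read 13.67, 13.74 and 13.69. Hspa4 was measured by 3 probes that did not show the same pattern. The brightest read 14.84, 14.83 and 14.80, differences of -0.02 and -0.04. The second read 11.82, 11.67 and 11.50, differences of -0.15 and -0.32. The third read 8.36, 8.70 and 7.80, a difference of 0.33 with AR7 and of -0.56 with BMS614. With AR7, Hspa4 was the only one of 11 genes whose probes lay on both sides of 0 and over 1.2-fold apart, while its brightest probe differed little from None.

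**Figure D4:**
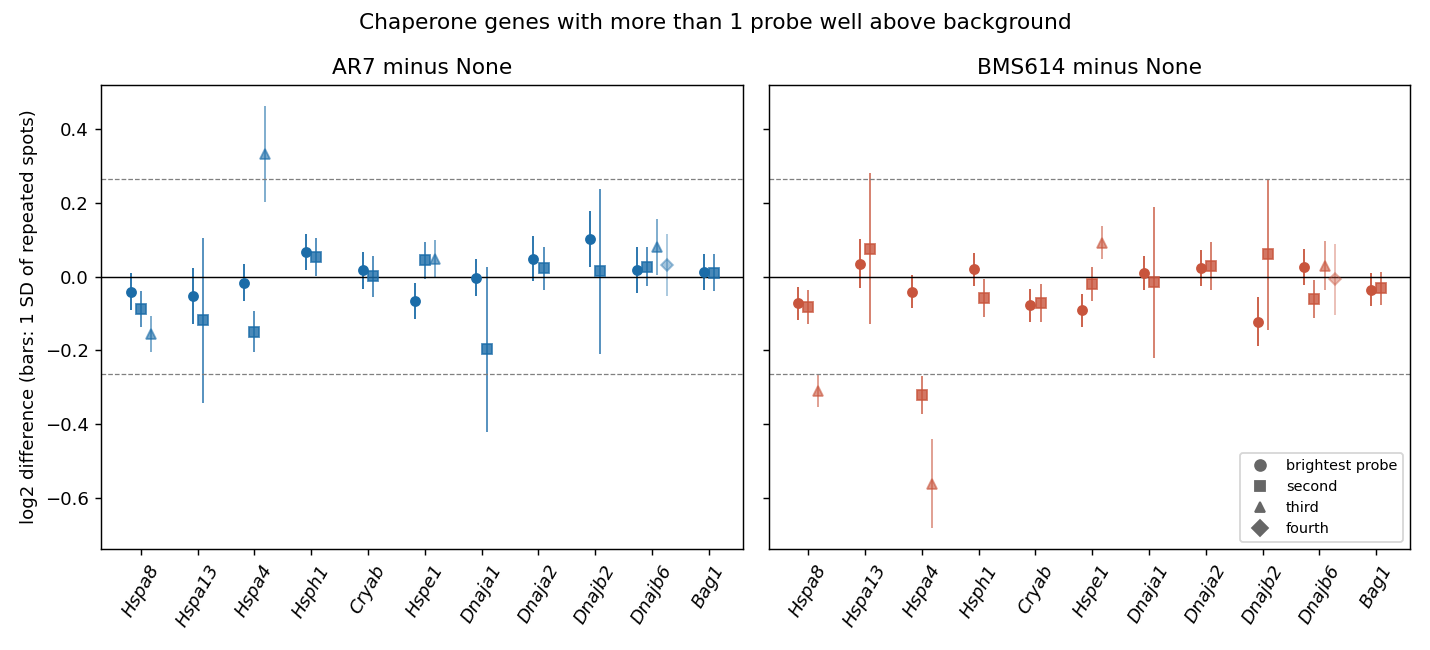
Log2 difference from None of every probe well above background on all 3 arrays for the 11 member genes with more than 1 such probe, with AR7 and with BMS614. Points of 1 gene stand side by side, bars are 1 spot SD and dashed lines mark 1.2-fold. For 10 of the 11 genes the range over probes was under 1.2-fold with AR7, and Hspa4 has the widest spread.

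In the 11 genes with more than 1 such probe, the median range between probes was 0.064 with AR7 and 0.077 with BMS614. The range was under 1.2-fold for 10 of the 11 genes in each. Probes of 1 gene lay on both sides of 0 for 2 genes with AR7 and 5 with BMS614. The members' median absolute differences from None, 0.048 and 0.062, are of 1 probe per gene over 41 members. A range spans several probes, dimmer ones among them, so the measures are not alike.

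HSP90 proteins hold signalling clients in a near-native state. Hsp90ab1, the constitutive form, read 17.60 with None, 17.60 with AR7 and 17.62 with BMS614. Its differences of 0.00 and 0.02 lay within the spot error, and under single-factor scaling of the arrays they were -0.06 to -0.09 with AR7 and near -0.12 with BMS614, the sign turning with BMS614. Hsp90aa1, the stress-responsive form, read 14.97, 14.94 and 14.90. Ahsa1, which stimulates the HSP90 ATPase, differed by -0.05 and -0.02, and Chordc1, an HSP90 partner, by 0.02 and 0.02. No HSP90 gene was past 1.2-fold in any of the 3 comparisons.

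Small heat shock proteins hold unfolded clients without ATP. Hspb8, which works with Bag3, read 12.13 with None, 12.29 with AR7 and 12.10 with BMS614. It was 0.15 higher with AR7 than with None, the highest difference of any member in that comparison, beside a spot SD of 0.052, and lay -0.03 from None with BMS614. The AR7 array was 0.18 above the BMS614 array. Cryab, the alpha-B crystallin, read 14.34, 14.35 and 14.26. Hspb1, the HSP27 homologue, was well above background on the AR7 array only, where its measured signal was 4.40, with 4.60 for None and 3.88 for BMS614 not well above background. Against BMS614 this gives AR7 at least 1.43-fold higher, at a signal where the spot SD was 0.377, and in 1 of 8 alternative settings that gave a value it was under 1.2-fold. No fold is given against None.

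Mitochondrial chaperones import and fold proteins in the matrix. Hspd1 (HSP60) read 16.44 with None, 16.34 with AR7 and 16.33 with BMS614, lower with both compounds by -0.10 and -0.11, over 2 spot SDs of 0.049 and 0.045. Its partner Hspe1 (HSP10) read 15.83, 15.76 and 15.74 by the brightest of 3 probes, and the other probes differed from None by between -0.02 and 0.09. Trap1, the mitochondrial HSP90, read 11.68, 11.71 and 11.56 and was lower with BMS614 than with None by -0.11, the largest difference of the group. Hspa9, mortalin, differed by 0.10 and 0.04, and Dnaja3 by -0.02 and -0.09. In the alternative settings Hspa9 fell as low as 0.0035 with AR7, and with BMS614 its sign turned in 2 of 9. By their brightest probes, all 5 mitochondrial members were higher with AR7 than with BMS614, by 0.01 to 0.15, none past 1.2-fold. Of 15283 named genes, 7563 were higher in that comparison. The third Hspe1 probe lay at -0.04 there, and for Hspd1 and Dnaja3 the sign turned in 1 of 9 alternative settings each.

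J-domain proteins bring clients to HSP70 and stimulate its ATPase. The member past 1.2-fold in this group was Dnajc7, also called TPR2, which binds both HSP70 and HSP90. Its 1 probe read 13.12 with None, 12.98 with AR7 and 13.64 with BMS614. The BMS614 array was the highest, 0.52 above None or 1.44-fold, beside a spot SD of 0.048, while the AR7 array lay -0.13 from None. Of 10069 named genes whose mean log2 signal was 8 or more, 20 others were as far above None or further with BMS614. The AR7 array lay -0.66 from the BMS614 array, and 7 others lay as far below or further. In the 9 alternatives the difference with BMS614 ran from 0.50 to 0.52 and stayed past 1.2-fold. Filters on dim probes, outlier spots kept and the mean over probes could not change it. The 1 Dnajc7 probe was well above background on all 3 arrays and had no outlier mark. The other 7 measured J-domain proteins were all under 1.2-fold. Dnaja4 read 11.09, 10.91 and 10.95, lower by -0.18 with AR7 and -0.14 with BMS614. Dnajb2 read 10.22, 10.32 and 10.10, with AR7 0.22 above BMS614, where its second, dimmer probe gave -0.05. Dnaja1, Dnaja2, Dnajb1, Dnajb4 and Dnajb6 differed from None by between -0.06 and 0.06.

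Co-chaperones link HSP70 and HSP90 or end their cycles, and none of the 6 was past 1.2-fold. St13 (HIP), which steadies the HSP70 complex, read 13.53 with None, 13.38 with AR7 and 13.50 with BMS614. It was lower with AR7 by -0.16, the largest of the group, beside a spot SD of 0.061. Stip1 (HOP), which hands clients to HSP90, differed by 0.00 and -0.11. Stub1 (CHIP), a ubiquitin ligase, differed by -0.04 and -0.08. Bag1, Bag2 and Bag3, nucleotide exchange factors, differed by 0.01, -0.07 and 0.00 with AR7 and by -0.04, -0.09 and 0.09 with BMS614.

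Heat shock factors switch on the stress-inducible members. Hsf1 read 12.01 with None, 11.92 with AR7 and 12.00 with BMS614. Hsf2, a partner of Hsf1 that is less tied to heat, read 9.22, 9.12 and 9.47, highest with BMS614. It was 0.25 above None with BMS614, a 1.19-fold difference that is just under the threshold, and -0.10 from None with AR7. The AR7 array lay -0.35 from the BMS614 array, past 1.2-fold in each of 9 alternatives, beside a spot SD of 0.086. As for Dnajc7, filters on dim probes, outlier spots kept and the mean over probes could not change this value. CCT folds actin and tubulin. Of its 5 measured subunits none was past 1.2-fold. Cct5 read 15.95, 15.91 and 15.84, lower by -0.11 with BMS614, the largest of the group, and Tcp1, Cct2, Cct3 and Cct8 differed from None by between -0.10 and 0.08.

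Of 70 chaperone genes in a wider list of J-domain proteins, CCT and prefoldin subunits, BAG proteins and others, none of them members, 64 had a value with AR7 and 65 with BMS614. The median difference was -0.02 with AR7 and -0.01 with BMS614. Past 1.2-fold with AR7 there were 1 higher, Cryaa, and 1 lower, Hspa1l, beside 8.22% and 6.93% of named genes. With BMS614 there were 2 higher, Cryaa and by its bound Dnajc27, and 1 lower, Cct6b, beside 8.99% and 8.07%. In either direction this was 3.1% and 4.6%, beside 3.22% and 5.11% of named genes whose mean log2 signal was 8 or more. Cryaa, the alpha-A crystallin of the lens, had log2 signals of 7.10 with None, 7.84 with AR7 and 7.88 with BMS614, higher by 0.73 and 0.78 beside spot SDs of 0.129 and 0.121. Both compound arrays stood above None. Hspa1l, a testis form of HSP70, lay at -0.57 with AR7 at a signal where the spot SD was 0.393. Cct6b, a testis CCT subunit, lay at -0.30 with BMS614, beside a spot SD of 0.205. For AR7 against BMS614, none of 65 was higher and 3 were lower, Hspa1l, Bag4 and by its bound Dnajc27, beside 8.58% and 8.66%. This share of 4.6% stands beside 4.37% of named genes whose mean log2 signal was 8 or more. Bag4, a BAG protein, lay at -0.27 in that comparison. For chaperones of the endoplasmic reticulum, which are not members, the median of 12 was -0.11 with AR7, with 10 below 0, and -0.03 with BMS614. Past 2 spot SDs there were 6 of the 12 with AR7 (50%), beside 18.2% of named genes, and 5 with BMS614 (41.7%), beside 25.4%. Between the compounds 7 were past it (58.3%), beside 27.1%. Among named genes whose mean log2 signal was 8 or more, the shares were 20.3%, 28.7% and 34.4% in the same order. The farthest from None were Sdf2l1 with AR7 and Pdia4 with BMS614, each at -0.31.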

How the data were processed

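Expression was measured on 3 one-colour Agilent arrays of NIH3T3 cells, 1 each for None, AR7 and BMS614, grouped by the treatment given in the labels. The authors deposited the scanner software's spot intensity for each array (Agilent Feature Extraction 10.7.3.1), not yet normalized, and also a value table of intensity on a linear scale, whose 75th percentiles lie between 598.8 and 599.9 and which was used only as an alternative. The submitters' processing notes name oligo and RMA. Here the median pixel intensity of each spot was background corrected by the RMA convolution model, without the oligo package, quantile normalized over the 3 arrays and taken to log2, with spots marked as outliers left out and spots of a probe averaged. R 4.3.3 with limma 3.58.1, Python 3.11.15, numpy 2.4.6, pandas 2.3.3 and matplotlib 3.10.9 were used.

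Probes were named by matching their RefSeq accession to the GRCm38.p6 gene table, which named 27235 of 55681 probes. Where a probe was well above background on only 1 array of a pair, the difference is a bound. It was set against the dim array's floor, the lowest signal called well above background there, or the probe's own signal if higher. Bounds under 1-fold were left out. Members and gene lists were chosen with earlier results of these data known. Named with values are Hspa8 and all HSP70 genes, the members past 1.2-fold in any comparison, the member farthest from None in each group, members whose probes differ in direction past 1.2-fold, and wider-list genes past 1.2-fold. Other members are given by their differences, and the endoplasmic reticulum genes named were chosen after their values were seen. Named genes whose mean log2 signal was 8 or more were added as a background after the data were seen.

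Each condition has 1 array, hence no test and no p-value, and the number of arrays limits the precision. The alternatives were the processed signal scaled to the 75th percentile, normexp with an offset of 50, RMA background with 75th percentile or spike-in scaling, the deposited table with a floor of 16, other filters on dim probes, outlier spots kept, the mean over all probes, and thresholds of 1.1, 1.5 and 2-fold. CA39 and CA77 were not analysed here.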

Additional observations from a re-analysis of the deposited data

Results flagged for a closer look

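Dnajc7 lay below None with AR7 and above None with BMS614, so that the log2 difference of AR7 from BMS614 was -0.6592. Hsf2 lay on opposite sides of None in the same way, with a difference between AR7 and BMS614 of -0.3539. Each rests on 1 spot per array and 1 array per condition, and the difference between the compounds was not tested.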

How the results depend on the processing

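Hspa1a, the dim member, fell under 1.2-fold in 3 settings (processed signal, normexp, deposited table), which took the count of members past 1.2-fold from 1 to 0 with AR7 and from 2 to 1 with BMS614. With the mean over all probes or no filter on dim probes, the count with BMS614 was 3. With thresholds of 1.1, 1.5 and 2-fold, the counts were 5, 0 and 0 with AR7, 5, 0 and 0 with BMS614, and 6, 1 and 0 between the compounds, where the count at 1.2-fold was 3. The brightest Hspa8 probe kept its sign in all settings. The difference with AR7, -0.0409, was -0.0992 with the processed signal, -0.1183 with RMA background and 75th percentile scaling, -0.1114 with spike-in scaling, -0.1333 with the deposited table and -0.0946 as the mean of its probes. With BMS614, -0.0729 became -0.1886, -0.2354, -0.2362, -0.2314 and -0.1545 in the same order. Between the compounds, 0.032 became 0.0894, 0.1171, 0.1224 and 0.0981 for the first 4. The settings that moved it most do not give each array the same distribution. No setting moved a median over all members by as much as the members' median spot SD. With AR7 the median of -0.0185 was -0.0666 with the processed signal, and with BMS614 -0.0351 was -0.0686 with spike-in scaling. Between the compounds the median of 0.0172 turned to -0.0049 with the processed signal. No value of a named member past the threshold changed sign. Over 9 settings the sign was kept for 32 of 41 members with AR7, 32 of 41 with BMS614 and 31 of 42 between the compounds. The count with AR7 includes Hsp90ab1, whose difference of 0.00 had no sign to turn. Outlier spots kept could change no member, as no member probe had an outlier mark. The filters on dim probes and the mean over probes could not change a member with 1 probe well above background on all arrays. With spike-in scaling, probes well above background on all 3 arrays had median shifts of 0.15 with AR7, 0.31 with BMS614 and -0.16 between the compounds, and differences are given relative to them. No paired analysis was possible because there is 1 array per condition, and for the same reason no array could be left out. The slide could not be a block because all arrays lie on 1 slide.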
